A study of Homo sapiens with 59 samples.

Results

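Aminoacyl-tRNA synthetases are described here in Jurkat cells, a human T cell leukaemia line, grown with less of 1 essential amino acid. The 38 genes were chosen by name: 19 cytosolic synthetases or their subunits, 16 mitochondrial synthetases, and the scaffold genes AIMP1, AIMP2 and EEF1E1 of the multisynthetase complex. They are 38 of 34622 genes listed in at least 1 of the deposited tables, and all 38 were present and passed the filter on low values in each of the 7 tables. The choice rests on gene names and not on any measured value, but it was made with earlier results of these data known.

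The study grew Jurkat cells for 3 days in media holding 25% of histidine, methionine, phenylalanine, tryptophan, isoleucine, leucine or valine, and sequenced RNA as 5 libraries for each of these 7 restricted groups. Histidine, methionine, phenylalanine and tryptophan each had a control group of 5 libraries of their own, while isoleucine, leucine and valine share 1 branched-chain amino acid control group of 4. All 59 libraries came from day 3, and the labels name no other genotype, drug or time. They do not say how much of each amino acid the control media held, or whether the numbered libraries were separate cultures, so every p-value refers to the spread among libraries alone, which may be technical.

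A synthetase joins 1 amino acid to the tRNAs that read its codons, and ribosomes slow at those codons where charged tRNA runs short. Cells keep largely separate enzymes for the cytosol and for mitochondria. Uncharged tRNA activates the kinase GCN2, which phosphorylates eIF2 and favours translation of the transcription factor ATF4, and many cytosolic synthetase genes have long been described as ATF4-responsive. In the multisynthetase complex several cytosolic synthetases are held together by AIMP1, AIMP2 and EEF1E1.

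Values are normalised counts, that is, counts the authors scaled to make libraries comparable, and each amino acid's table was normalised separately. Totals ran from 14.95 M to 20.54 M normalised counts per library, where M stands for mega. A change is the log2 difference between restricted and control libraries on log2(normalised count + 1), with its standard error (SE), and a gene was called higher or lower where limma gave a Benjamini-Hochberg adjusted p below 0.05 over all genes of that table. All 6 T cell markers were present, with group means from 1491 to 17966 normalised counts. Of 6 markers of other lineages only COL1A1, and in the phenylalanine table EPCAM, passed the filter; COL1A1 reached 4358 in histidine control 3 and 1396 in phenylalanine control 1. Cytosolic ribosomal protein mRNAs stood above their group by more than 0.5 on the log2 scale in phenylalanine restricted 2, phenylalanine control 1, branched-chain control 1 and valine restricted 2. Histidine control 3, methionine control 1 and phenylalanine control 1 had correlations with their group below 0.94. The part of these libraries in the results below was examined only by leaving them out.

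Synthetase genes were called in both directions in 6 of the 7 comparisons. In bulk RNA, a change in all cells and a change in the share of cells in some state cannot be told apart. Under histidine restriction 12 members were higher and 6 lower, where 15.6% and 12.3% of all genes tested were called higher and lower, 27.9% in all. Under methionine restriction 15 were higher and 11 lower, against 27.8% and 25.4% of all genes (53.2% in all). Under tryptophan restriction 2 were higher and 27 lower, against 23.6% and 27.7% (51.3% in all). As a share of the 38, the 27 are 71.1%, and the median member changed by -0.37 where the median of all genes changed by 0.03. Phenylalanine restriction gave 3 higher and 6 lower members (4.11% and 6.09% of all genes, 10.2% in all), valine restriction 4 and 7 (5.13% and 7.36%, 12.5% in all), and leucine restriction 1 and 5 (3.41% and 4.33%, 7.75% in all). Under isoleucine restriction no gene of the table was called (0%), members included. In the other 6 comparisons the median member moved by between -0.03 and 0.05, and the median of all genes by between -0.01 and 0.03. The number of members called lower under histidine restriction was 3 without restricted 2 or without restricted 4. The number called lower under leucine restriction was 3 without restricted 3, 4 or 5. Without branched-chain control 1, 5 members were higher under leucine and 7 under valine restriction. Without the libraries high in ribosomal protein mRNA, 7 members were higher and 13 lower under phenylalanine restriction, and 9 higher under valine restriction.

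**Figure D1:**
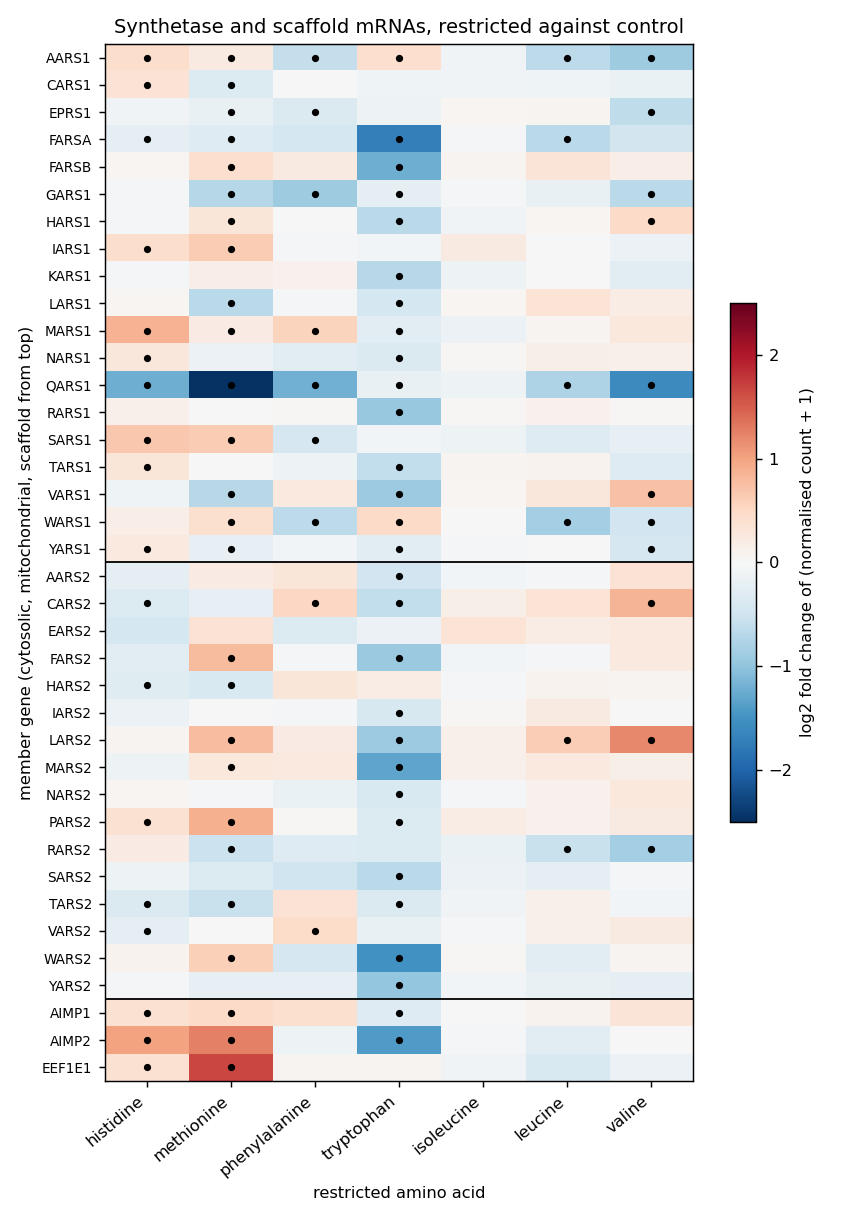
Log2 change (restricted minus control) of each of the 38 members, in rows grouped by class, under each of the 7 restrictions, in columns, with calls at adjusted p below 0.05 marked. QARS1 is lower in 6 columns, the tryptophan column is lower in 27 rows, and the isoleucine column has no call.

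A short promoter sequence was found mainly in the synthetases described as ATF4 targets, and its context is printed here because the calls of the genes that hold it are compared with those of the others below. The motif searched was TGATGNAA on either strand, the core of the composite site that ATF4 and C/EBP factors are known to bind, in the window from 250 bases before to 50 bases after each RefSeq start site (GRCh38.p14). Of 38 members, 33 had a promoter in the RefSeq table used, and 8 held the motif, where it occurs in 3.62% of all 35116 promoters and in at least 1 promoter of 4.46% of 27305 genes. These were 7 of the 10 ATF4-described synthetases with a promoter, 0 of 6 other cytosolic synthetases, 1 of 14 mitochondrial ones and 0 of 3 scaffold genes. In the 60-base windows below, read 5′ to 3′ on the strand of the gene, capitals mark the match. Most are TTGCATCA, the motif read on the opposite strand.
AARS1 (chr16:70289660-70289719, minus strand): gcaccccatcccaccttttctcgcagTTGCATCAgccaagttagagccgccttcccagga
CARS1 (chr11:3057392-3057451, minus strand): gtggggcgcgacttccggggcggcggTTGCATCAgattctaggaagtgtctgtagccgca
GARS1 (chr7:30594819-30594878, plus strand): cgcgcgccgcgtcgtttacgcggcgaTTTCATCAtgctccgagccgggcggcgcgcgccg
IARS1 (chr9:92293677-92293736, minus strand): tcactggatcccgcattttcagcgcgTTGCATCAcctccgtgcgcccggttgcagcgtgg
MARS1 (chr12:57488038-57488097, plus strand): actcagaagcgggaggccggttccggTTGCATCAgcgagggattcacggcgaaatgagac
NARS1 (chr18:57621789-57621848, minus strand): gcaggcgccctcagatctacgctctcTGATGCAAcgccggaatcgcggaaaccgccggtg
TARS1 (chr5:33440941-33441000, plus strand): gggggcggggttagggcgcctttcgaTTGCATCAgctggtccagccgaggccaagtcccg
YARS2 (chr12:32756061-32756120, minus strand): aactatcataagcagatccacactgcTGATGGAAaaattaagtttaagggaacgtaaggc
A match is a string of letters and not a measured binding site. Under histidine restriction 6 of the 8 genes with the motif were higher and 0 lower, against 5 higher and 5 lower among the 25 without it. Under tryptophan restriction 1 of the 8 was higher and 5 lower, against 1 and 18 of the 25. Under methionine restriction 3 of the 8 were higher and 2 lower, against 12 and 6 of the 25, with medians of -0.07 and 0.27. Under valine restriction 0 of the 8 were higher and 2 lower, against 3 and 4 of the 25. Under phenylalanine restriction the counts were 1 and 2 of the 8 against 1 and 4 of the 25, and under leucine restriction 0 and 1 against 1 and 4. These counts are a description and were not tested. Of all genes, 15.6% were higher and 12.3% lower under histidine, and 27.8% and 25.4% under methionine restriction. For tryptophan these shares were 23.6% and 27.7%, and for phenylalanine 4.11% and 6.09%. For leucine they were 3.41% and 4.33%, and for valine 5.13% and 7.36%. The start sites of HARS1 and HARS2, the cytosolic and mitochondrial histidine enzymes, lie 85 bases apart on opposite strands of chromosome 5, so their promoters share sequence.

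The 12 cytosolic synthetases described as ATF4-responsive (AARS1, CARS1, EPRS1, GARS1, IARS1, LARS1, MARS1, NARS1, SARS1, TARS1, WARS1 and YARS1) had more calls higher than lower under histidine restriction, and more lower than higher under phenylalanine, valine and tryptophan restriction. Scaling libraries to equal totals turned that order for tryptophan only, to 4 rises and 1 fall, where 6872 of all genes were higher and 2814 lower. Under histidine restriction, where 15.6% of all genes were higher and 12.3% lower, 8 of the 12 were higher and 0 lower, with a median change of 0.29. The 7 other cytosolic genes had 0 higher and 2 lower and a median of -0.05. MARS1, which charges methionine tRNA, changed most among the 12. It held 10299.9, 8758, 9265, 9289 and 8875 normalised counts in the restricted libraries and 5007, 5277, 5014, 5689.6 and 4415 in the controls. The groups were apart in every library, and MARS1 was higher by 0.87 (SE 0.07, adjusted p = 2.18e-06), a 1.83-fold rise. The other 7 that rose were SARS1 (0.68), IARS1 (0.45), AARS1 (0.44), CARS1 (0.35), TARS1 (0.30), NARS1 (0.29) and YARS1 (0.24), the enzymes for serine, isoleucine, alanine, cysteine, threonine, asparagine and tyrosine. EPRS1, GARS1, LARS1 and WARS1 were not called, at -0.08, -0.05, 0.05 and 0.16.

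Methionine restriction split the same 12 genes into 5 higher and 5 lower, where 27.8% of all genes were higher and 25.4% lower. SARS1 held 8624, 8494, 7732, 9001 and 8963 normalised counts in restricted and 5485, 5501, 5893, 5043 and 5474 in control libraries. No restricted library overlapped the controls, and the change was 0.64 (SE 0.06, adjusted p = 1.35e-06). IARS1 rose by nearly as much (0.63, adjusted p = 3.28e-05), followed by WARS1 (0.41), AARS1 (0.23) and MARS1 (0.21). In the opposite direction GARS1, the glycine enzyme of both compartments, fell by 0.70 (adjusted p = 1.96e-06) and LARS1 by 0.68 (adjusted p = 0.0101), with CARS1 at -0.35. EPRS1 and YARS1 were also called lower, at -0.18 and -0.21, but EPRS1 lost its call without any 1 of restricted 1 to 3 or control 1 to 3, and YARS1 without any 1 of restricted 1, 2, 3 or 5 or control 2 or 5, with adjusted p up to 0.117 and 0.0925.

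Under phenylalanine, leucine and valine restriction most calls among the ATF4-described genes were falls: 1 was higher and 5 lower of 12 under phenylalanine, 0 and 2 under leucine, and 0 and 5 under valine. The medians were -0.20, 0.00 and -0.26. Of all genes, 4.11% were higher and 6.09% lower under phenylalanine, 3.41% and 4.33% under leucine, and 5.13% and 7.36% under valine restriction. AARS1, the alanine enzyme, held 10816, 10118, 10353, 11650.3 and 11648 normalised counts under valine restriction and 21836, 18734, 19694 and 20829 in the branched-chain controls. Every restricted library lay below every control, and AARS1 was 1.86-fold lower (log2 change -0.89, SE 0.11, adjusted p = 0.000286). It also fell by 0.59 under phenylalanine (adjusted p = 0.00218) and by 0.66 under leucine restriction (adjusted p = 0.00175). WARS1, the cytosolic tryptophan enzyme, was the member that fell most under leucine restriction, holding 2162, 2017, 1863, 1994 and 1990.1 normalised counts against 4009, 3379, 3412 and 3667 in controls. The groups did not overlap and the change was -0.85 (SE 0.09, adjusted p = 0.000178). GARS1 fell by 0.88 under phenylalanine restriction (adjusted p = 6.29e-05) and by 0.67 under valine restriction (adjusted p = 0.00334). Leucine and valine restriction share their control libraries, so their changes are not independent of each other.

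AARS1 and WARS1 rose where most other members fell. Under tryptophan restriction AARS1 held 10829.6, 9803, 10665, 11948 and 10729 normalised counts against 7908, 8426, 8194, 7703 and 8021 in controls. The groups were apart, with a change of 0.42 (SE 0.06, adjusted p = 2.11e-05). Its level in control libraries differed between tables. AARS1 averaged 11305 in the histidine, 11258 in the methionine and 8050.4 in the tryptophan controls, but 17788 in the phenylalanine and 19045 to 20273 in the branched-chain controls. Of the 38 members, 5 (AARS1, WARS1, SARS1, PARS2 and EEF1E1) had phenylalanine and branched-chain control means that were all above those of the other 3 control groups. The share of all genes with this order was not computed, and the branched-chain means of the 3 tables come from the same 4 libraries. HSPA5, an endoplasmic reticulum chaperone, was at 42264 in phenylalanine and 50550.2 to 53874 in branched-chain controls, against 7577 to 8653 in the others. These levels come from tables normalised separately, and the part of this difference between control groups in the falls of AARS1 and WARS1 was not tested.

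**Figure D2:**
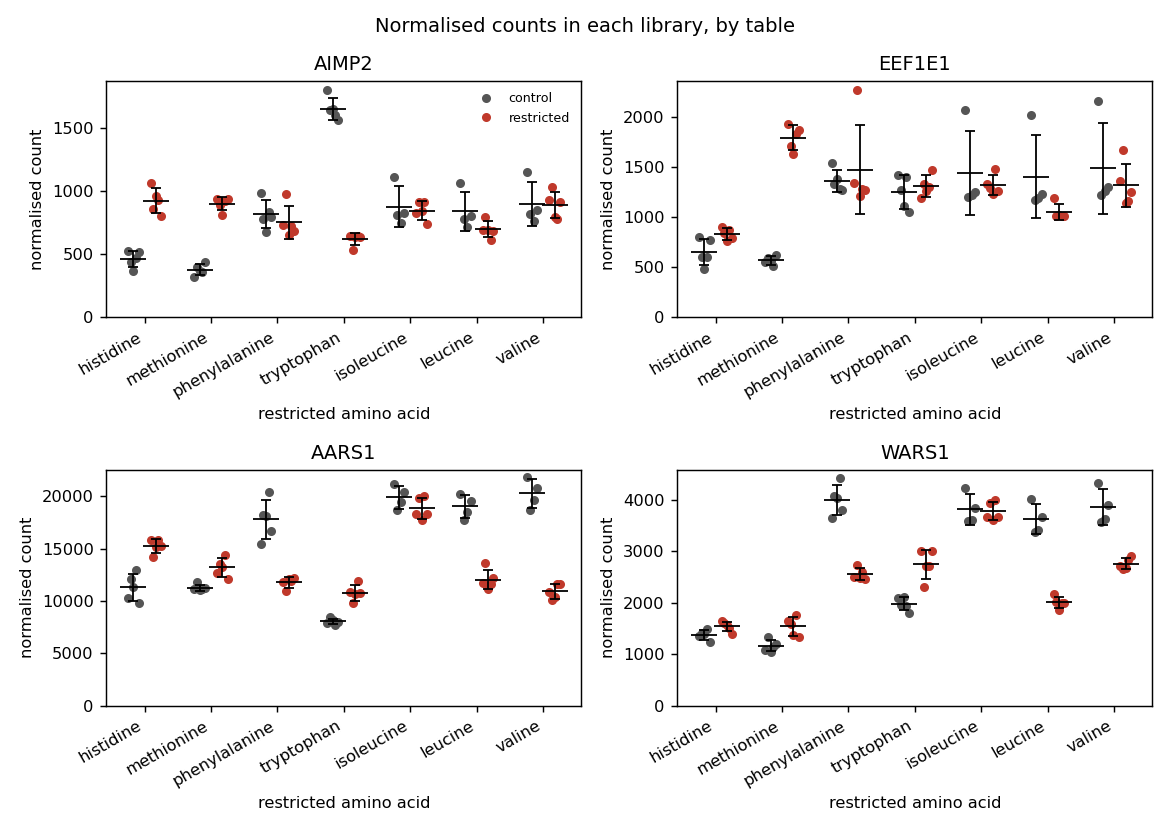
Normalised counts of AIMP2, EEF1E1, AARS1 and WARS1 in each library, restricted and control, by amino acid table, each point 1 library with mean and SD bars. AARS1 and WARS1 controls stand higher in the phenylalanine and branched-chain tables than in the others, AIMP2 controls stand highest in the tryptophan table, and levels between tables come from separate normalisations.

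QARS1, which charges glutamine tRNA and sits in the multisynthetase complex, was lower in 6 of 7 comparisons, and no other member was called in a single direction in as many. It lies at chr3:49095932-49104757, minus strand (GRCh38.p14). Under methionine restriction its libraries held 815, 1034, 872, 984 and 866 normalised counts against 4281, 5452, 5289.5, 5038 and 5283 in controls. No restricted library came near a control, and the means of 914 ± 91.1 (SD, n = 5) and 5069 ± 465 (SD, n = 5) differed 5.54-fold on that scale (log2 change -2.47, SE 0.09, adjusted p = 5.66e-11). This was the largest fall of any member in any comparison.

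Valine restriction left QARS1 at 1487, 1832, 1389, 1437 and 1526 normalised counts, where the branched-chain controls held 5793, 4221, 3906 and 4804. All 5 restricted libraries were below all 4 controls, and the level was 3.03-fold lower (log2 change -1.60, SE 0.14, adjusted p = 1.85e-05). Under histidine restriction QARS1 held 2187, 1933, 1733, 2167 and 2138 against 4303, 4859.8, 4761, 4975 and 4578 normalised counts, again without overlap, a change of -1.21 (SE 0.07, adjusted p = 1.42e-07). Under phenylalanine restriction it held 1999, 2209.6, 1969.7, 1789 and 1843 against 4302, 4419, 4364, 5110.1 and 4355, a change of almost the same size (-1.20, SE 0.09, adjusted p = 8.71e-06) and also without overlap. Leucine restriction gave 2244, 2824, 2316, 2738 and 2645 against 5367, 4002, 3674 and 4512 in the branched-chain controls, which were all higher (-0.77, SE 0.12, adjusted p = 0.00338).

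The other 2 comparisons stood apart from these. Under tryptophan restriction QARS1 held 2521, 2568, 2515, 2471 and 2679.7 normalised counts against 2667, 2868, 2933, 2863 and 3117 in controls, with 1 restricted library above the lowest control. The change was -0.18 (SE 0.05, adjusted p = 0.0133), and it turned to 0.07 (adjusted p = 0.337) when libraries were scaled to equal totals. The tryptophan controls, at 2889.6, had the lowest QARS1 mean of the control groups, which otherwise averaged 4388 to 5069. Under isoleucine restriction QARS1 held 4342, 4016, 4032, 4449 and 4068 against 5615, 4203, 3844 and 4692, overlapping, with a change of -0.12 whose 95% interval ran from -0.35 to 0.11 (adjusted p = 0.8). In the other 5 comparisons, leaving out any 1 library kept QARS1 called lower. QARS1 overlaps no gene on the opposite strand and has no pseudogene of its own name in GENCODE 29.

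**Figure D3:**
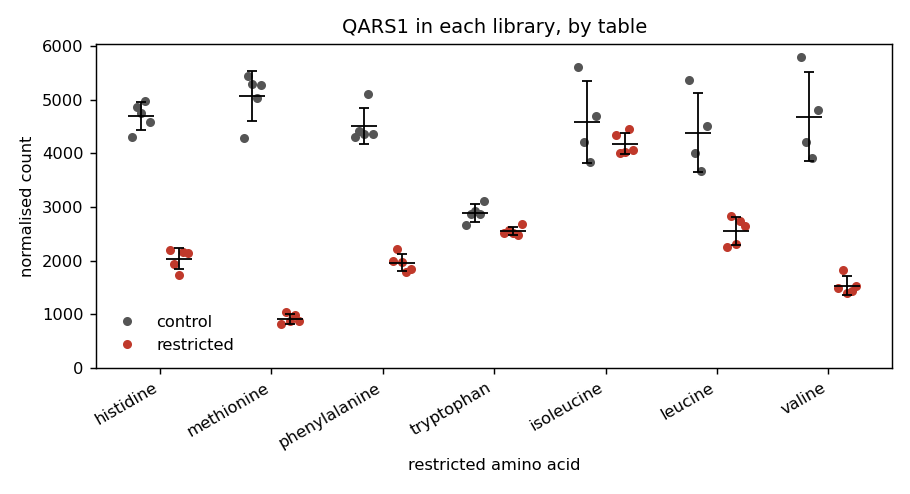
QARS1 normalised counts in each library, control and restricted, by amino acid table, with mean and SD. Restricted libraries lie below every control under histidine, methionine, phenylalanine, leucine and valine restriction, and groups overlap under tryptophan and isoleucine restriction.

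The synthetases of the restricted amino acid itself followed no single direction. Of 15 such genes in their own comparison, 5 were called higher (MARS1, MARS2, WARS1, LARS2 and VARS1), 2 lower (HARS2 and WARS2) and 8 not called. MARS1, MARS2, WARS1 and WARS2 belong to methionine and tryptophan restriction, where 53.2% and 51.3% of all genes were called. That share was 27.9% under histidine, 12.5% under valine, 10.2% under phenylalanine, 7.75% under leucine and 0% under isoleucine restriction. HARS1, the cytosolic histidine enzyme, held 1307, 1167, 1213, 1190.3 and 1123 normalised counts under histidine restriction and 1322, 1262, 1142, 1277 and 1179 in controls. The groups overlapped, with a change of -0.04 and a 95% interval of -0.19 to 0.10 (adjusted p = 0.667). Its mitochondrial partner HARS2 held 722, 645, 651, 746 and 741 against 851, 851, 786, 844 and 994, and fell by 0.30 without overlap (SE 0.08, adjusted p = 0.0143).

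Both methionine enzymes rose slightly when methionine was restricted. MARS1 held 6093, 6528, 5625, 6537 and 6209 normalised counts against 5612, 5226, 5486, 5146 and 5370.3 in controls, where the lowest restricted library was just above the highest control (0.21, SE 0.06, adjusted p = 0.01). MARS2, the mitochondrial enzyme, held 722, 716, 648, 724 and 727 against 603, 545, 565, 601 and 614, also apart (0.27, SE 0.07, adjusted p = 0.00681). MARS1 rose further under 2 other restrictions. It was the member that rose most under phenylalanine restriction, with 7387, 8742, 7417, 7246 and 7622 normalised counts against 4844, 5177, 5026, 6069 and 5119 and no overlap (0.55, SE 0.09, adjusted p = 0.00279). The response of MARS1 to methionine restriction was below its response to histidine restriction, with a difference of -0.67 (SE 0.09, adjusted p = 8.42e-06), in a test where 34.4% of all genes differed. Its difference from the response to phenylalanine restriction was -0.35 (adjusted p = 0.0161, 29.4% of all genes), and adjusted p rose to between 0.0597 and 0.0969 when the libraries numbered 1, 3 or 5 were left out. MARS1 responded more to methionine than to tryptophan (0.48, adjusted p = 5.68e-05) and isoleucine (0.36, adjusted p = 0.03), the latter not passing without the libraries numbered 1, 2, 4 or 5 (adjusted p = 0.0552 to 0.0958). MARS1 overlaps DDIT3 on the opposite strand, with which it may share reads.

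The phenylalanine enzymes did not pass the test in their own comparison. FARSA, the catalytic subunit of the cytosolic enzyme, held 3356, 5091, 3142, 3256 and 3561 normalised counts under phenylalanine restriction and 6261, 4621, 4639.5, 5372 and 3986 in controls. Restricted 2, a library high in ribosomal protein mRNA, lay within the controls and the other 4 below them, and the change was -0.44 (SE 0.15, adjusted p = 0.0902). Without restricted 2 FARSA was called lower, at -0.56 (adjusted p = 0.0101). FARSB, the other subunit, held 1625, 1735, 1459, 1536 and 1507 against 1336, 1492, 1281, 1268 and 1379 with a narrow overlap and a change of 0.22 in the other direction (95% interval 0.03 to 0.41, adjusted p = 0.141). Mitochondrial FARS2 held 279.5, 402, 234, 297 and 284 against 322, 250.2, 295, 316 and 324, a change of -0.03 with an interval of -0.35 to 0.30 (adjusted p = 0.939).

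Tryptophan restriction moved its 2 enzymes apart. WARS1, the cytosolic enzyme, held 2996, 2311, 2704, 2706 and 3001 normalised counts against 2089, 1958, 2114, 1925 and 1797 in controls. All restricted libraries were higher, by 0.47 (SE 0.08, adjusted p = 0.000136), the largest rise of any member under this restriction. WARS2, the mitochondrial enzyme, held 139, 173, 167, 145 and 156 against 474, 446, 514, 451 and 362 normalised counts, a 2.86-fold fall without overlap (-1.52, SE 0.11, adjusted p = 5.44e-08). In the tables normalised separately, WARS2 averaged 449 in the tryptophan controls and 138 to 269 in the other controls, so its level under tryptophan restriction lay among those of other controls.

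Of the cytosolic enzymes for branched-chain amino acids, the valine enzyme passed the test in its own comparison. VARS1 held 3999.7, 4753, 4262, 4381 and 4299 normalised counts under valine restriction and 3037, 2719.6, 2077 and 2745 in controls, without overlap (0.73, SE 0.13, adjusted p = 0.00297). It had the largest rise of any cytosolic synthetase under valine restriction, while mitochondrial VARS2 held 1673, 2942, 2095, 1546 and 1911 against 1662, 1911, 1419.6 and 1813 and was not called (0.23, interval -0.16 to 0.61, adjusted p = 0.436). Restricted 2, high in ribosomal protein mRNA, was the highest VARS2 library.

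LARS1, the cytosolic leucine enzyme, held 2204, 2519, 2879, 2346 and 2307 normalised counts under leucine restriction against 2453, 1532, 2078 and 1805 in controls. A single control lay among the restricted libraries, and the change of 0.33 was not called (interval 0.04 to 0.62, adjusted p = 0.147), but it was 0.45 (adjusted p = 0.0245) without branched-chain control 1. Mitochondrial LARS2 held 964, 1025, 717, 708 and 993 against 523, 569, 466 and 733, overlapping in 1 control, and was called higher (0.62, SE 0.16, adjusted p = 0.0355). That call was lost, at adjusted p 0.0605 to 0.0905, without any 1 of restricted 1, 2 or 5 or branched-chain control 3 or 4. Under isoleucine restriction IARS1 held 8256, 8361, 7584, 8529 and 7709 against 6412, 6333, 8057 and 7175 and IARS2 3002, 3062, 2762, 3137 and 3009.8 against 2953, 2638, 2992 and 3126. Both pairs of groups overlapped, with changes of 0.21 (interval 0.01 to 0.42) and 0.03 (interval -0.14 to 0.21) and adjusted p of 0.797 and 0.921.

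**Figure D4:**
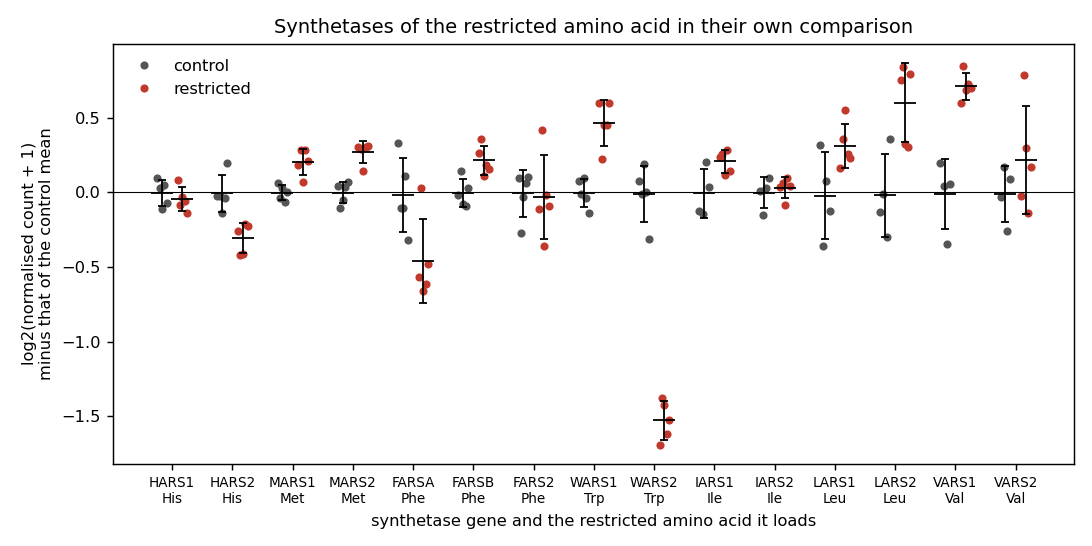
Each library's log2(normalised count + 1) minus the control mean, control and restricted, for the 15 synthetases of the restricted amino acid in their own comparison, with mean and SD. WARS1 and VARS1 lie above their controls and WARS2 lies far below, while HARS1, FARS2 and IARS2 overlap theirs.

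Whether a synthetase responds more to its own amino acid than to another was tested as the difference of 2 responses, in 78 pairs that do not share control libraries. In 20 pairs the own response was higher and in 13 lower. Most of the 20 were pairs with tryptophan, 5 of them of WARS1 and the others of genes called lower under tryptophan restriction. WARS2 made up 6 of the 13. Between 0.691% and 53.6% of all genes differed, depending on the pair. In pairs with tryptophan the shares were 43.3% with histidine, 53.6% with methionine, 32.6% with phenylalanine, 33.1% with isoleucine, 40.2% with leucine and 35.2% with valine. Pairs of methionine had 34.4% (histidine), 29.4% (phenylalanine), 37.2% (isoleucine), 37.2% (leucine) and 28.3% (valine). Pairs of histidine had 12.2% (isoleucine), 16.6% (leucine), 13.2% (valine) and 9.66% (phenylalanine), and pairs of phenylalanine 4.68% (leucine), 5.5% (isoleucine) and 0.691% (valine). WARS1 responded more to tryptophan than to 5 of the 6 other restrictions, by 0.31 against histidine (adjusted p = 0.0185) up to 1.32 against leucine (adjusted p = 1.07e-08). The difference from histidine did not pass without the libraries numbered 4 (adjusted p = 0.0968) or 5 (adjusted p = 0.0583). Against methionine, which also raised WARS1, the difference was 0.06 (SE 0.12, adjusted p = 0.694). WARS2 fell more under tryptophan than under all 6 others, with differences between -1.10 (SE 0.17) and -2.12 (SE 0.26). In these 6 tests of tryptophan 32.6% to 53.6% of all genes differed, and the isoleucine, leucine and valine ones share their controls.

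VARS1 responded more to valine than to histidine (0.84, adjusted p = 0.000596), methionine (1.41, adjusted p = 2.72e-07) and tryptophan (1.64, adjusted p = 1.93e-08). The difference from phenylalanine was 0.48 (SE 0.14, adjusted p = 0.12), in a pair where 0.691% of all genes differed. Without the libraries high in ribosomal protein mRNA that difference of VARS1 was 0.57 (adjusted p = 0.00523). The change of LARS1 was higher under leucine than under methionine (1.01, adjusted p = 0.00498) and tryptophan restriction (0.77, adjusted p = 0.00926). LARS1 was not called under leucine restriction (0.33) and was called lower under methionine (-0.68) and tryptophan restriction (-0.44). The change of HARS1 under histidine restriction was above that under tryptophan restriction (0.64, adjusted p = 4.87e-06). It was below those under methionine (-0.35, adjusted p = 0.0077) and valine restriction (-0.53, adjusted p = 0.0164). HARS1 was not called under histidine restriction (-0.04), fell under tryptophan (-0.68) and rose under methionine (0.30) and valine restriction (0.49). For HARS1 the difference from methionine was lost without the libraries numbered 4 (adjusted p = 0.0505), and that from valine without those numbered 2, 3, 4 or 5 (adjusted p = 0.0506 to 0.107). For VARS2 no pair passed, and for FARSA, FARSB, IARS2 and LARS2 the only pair that did was against tryptophan, where those genes fell.

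The 16 mitochondrial synthetases were called in both directions. Outside tryptophan restriction 1 was higher and 4 lower under histidine, 5 and 3 under methionine, 2 and 0 under phenylalanine, 1 and 1 under leucine and 2 and 1 under valine. Scaled to equal totals these were 4 and 0 under phenylalanine, 2 and 0 under leucine and 4 and 1 under valine. As deposited, 27.9% of all genes were called under histidine, 53.2% under methionine, 10.2% under phenylalanine, 7.75% under leucine and 12.5% under valine restriction. LARS2, the mitochondrial leucine enzyme, was called in 4 comparisons and rose most under valine restriction. There it held 1679.7, 981, 1278, 1608 and 1397 normalised counts against 559, 595, 491 and 773 in controls, without overlap, a 2.29-fold rise (1.19, SE 0.18, adjusted p = 0.00117), the largest of any member in this comparison. Under methionine restriction it was higher by 0.78 (adjusted p = 4.49e-05), and under tryptophan restriction lower (-0.92, adjusted p = 8.78e-06). LARS2 lies at chr3:45388576-45549407, plus strand, with the antisense gene LARS2-AS1 annotated over it. CARS2, for cysteine, likewise rose under valine (0.84, adjusted p = 0.000761) and phenylalanine restriction (0.51, adjusted p = 0.00808) and was lower under histidine (-0.34, adjusted p = 0.0119) and tryptophan restriction (-0.61, adjusted p = 1.39e-06). PARS2, the proline enzyme, and FARS2 rose under methionine restriction by 0.88 and 0.79 (adjusted p = 2.17e-05 and 0.000169). EARS2, the mitochondrial glutamate enzyme, was called in none of the 7.

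The 3 scaffold genes rose together under histidine and methionine restriction. AIMP2 was the member with the largest rise under histidine restriction, at 1061, 856, 963, 926 and 800.4 normalised counts against 527, 435, 368, 465 and 513 in controls. The lowest restricted library was well above the highest control, a 2-fold difference (1.00, SE 0.11, adjusted p = 1.88e-05). Under methionine restriction AIMP2 held 939, 889, 809.6, 920.2 and 936 against 314, 399.6, 364, 359.7 and 432, again apart (1.27, SE 0.09, adjusted p = 9.5e-08). EEF1E1, also known as AIMP3, rose most of all members under methionine restriction. It held 1931, 1709, 1628, 1824 and 1873 against 550.2, 593, 558, 509.8 and 622 normalised counts, a 3.16-fold rise without overlap (1.66, SE 0.08, adjusted p = 1.25e-09).

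AIMP1 rose by 0.38 under histidine (adjusted p = 0.0138) and 0.49 under methionine restriction (adjusted p = 0.0132). Under histidine restriction the call of EEF1E1 (0.38, adjusted p = 0.0333) was lost, at adjusted p 0.0611 to 0.0802, without any 1 of restricted 1, 2 or 4 or control 2, 3 or 4. Phenylalanine, isoleucine, leucine and valine restriction called none of the 3, and with equal totals 1 was higher under phenylalanine and 1 under valine restriction. EEF1E1 was highest of its group in all 4 libraries with raised ribosomal protein mRNA: phenylalanine restricted 2 at 2268 (next 1336), phenylalanine control 1 at 1537 (next 1375), branched-chain control 1 at 2018 to 2159 over the 3 tables (next 1229 to 1297) and valine restricted 2 at 1669 (next 1362). EEF1E1 was the only member ranked within groups in this way, and a link to ribosomal protein mRNA was not tested. AIMP2 overlaps EIF2AK1 on the opposite strand, and EEF1E1 shares an annotated read-through transcript with BLOC1S5, so part of their counts is uncertain.

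The complex did not move as a unit. Of its 10 genes 5 rose and 1, QARS1, fell under histidine restriction, and 5 rose and 3 fell under methionine restriction. In the latter EEF1E1, AIMP2, IARS1, AIMP1 and MARS1 were higher while QARS1, LARS1 and EPRS1 were lower. Under tryptophan restriction 0 rose and 7 fell, but 2 were higher and 3 lower when libraries were scaled to equal totals. As deposited, 27.9% of all genes were called under histidine, 53.2% under methionine and 51.3% under tryptophan restriction.

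**Figure D5:**
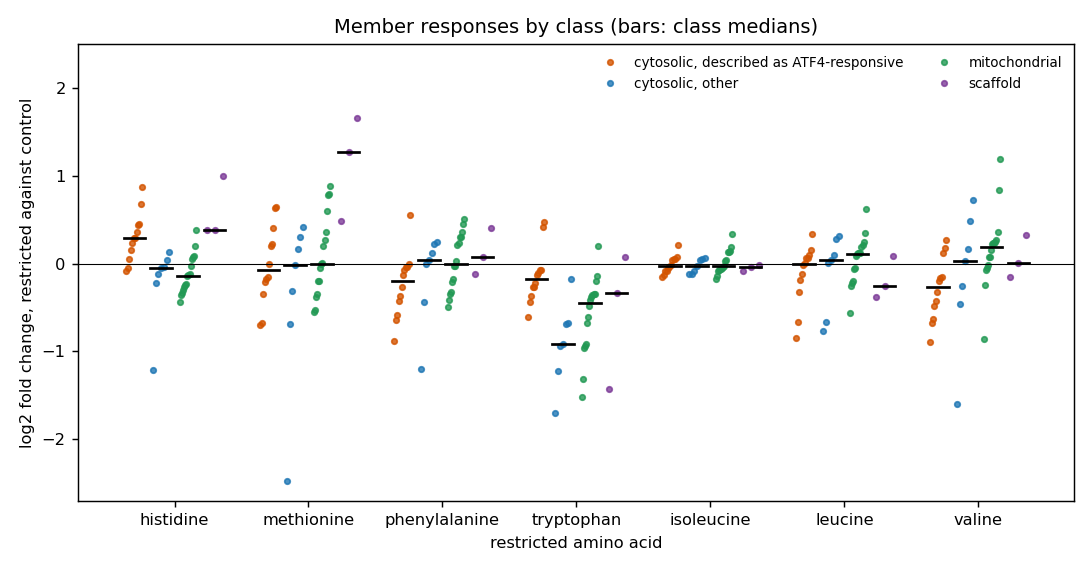
Log2 change of each member under each restriction, by class (12 ATF4-described and 7 other cytosolic synthetases, 16 mitochondrial synthetases, 3 scaffold genes), each point 1 gene, bars at class medians. The low point under histidine, methionine, phenylalanine and valine restriction is QARS1, and the class medians under tryptophan restriction lie between -0.91 and -0.18.

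Under tryptophan restriction members of every class were called lower: 6 of the 12 ATF4-described genes, all 7 other cytosolic genes, 12 of 16 mitochondrial genes and 2 of 3 scaffold genes. FARSA fell most, from 10872, 12509, 12945, 11011 and 11956 normalised counts in the controls to 3812, 3388, 3441, 3970.1 and 3572 in the restricted libraries. The groups were far apart, and the means of 11858 ± 909 (SD, n = 5) and 3637 ± 248 (SD, n = 5) differed 3.26-fold (-1.70, SE 0.06, adjusted p = 1.97e-10). Its partner FARSB fell by 1.22 (adjusted p = 6.43e-09), mitochondrial FARS2 by 0.93 (adjusted p = 1.21e-06), AIMP2 by 1.42 (adjusted p = 1.51e-09) and MARS2 by 1.31 (adjusted p = 4.87e-09). RARS1 and VARS1, the arginine and valine enzymes, fell by 0.94 and 0.91 (adjusted p = 7.82e-08 and 2.64e-07). HARS1, KARS1 and YARS2 fell by 0.68, 0.69 and 0.96. Members called in either direction were 29, where 51.3% of all genes were called. Restricted and control libraries did not overlap for 24 of the 29, a count among genes already called. The share of all genes without overlap was not computed, so that count says nothing particular about the members.

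The tryptophan controls held more of these mRNAs than any other control group. The tryptophan control mean was the highest of the 7 tables for 26 of the 38 members, and for 35.5% of 15513 genes compared. Among the 27 members called lower it was so for 25, but a call of lower itself favours a high control mean. As a share of each library's total it was so for 24 of the 27, and for 29.6% of all genes compared. All genes called lower were not ranked in this way. FARSA averaged 11858 normalised counts in the tryptophan controls and 2992 to 6085 in the other controls. FARSB averaged 4409.6 against 1094 to 1472, and AIMP2 1650.4 against 374 to 895. The restricted mean of 11 of the 27 lay within the range of the other control groups, that of 9 below it and that of the rest above it. These shares were not computed for all genes called lower. These levels come from tables normalised separately, and whether the difference lies in the control or in the restricted libraries cannot be told apart here.

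The size of the fall also depends on the scaling. The tryptophan controls had totals of 18.18 M to 18.82 M normalised counts and the restricted libraries 15.27 M to 16.04 M. With libraries scaled to equal totals, the median of all genes shifted by 0.25, and 6 members were higher and 17 lower in place of 2 and 27. Of all 16697 genes then tested, 6872 were higher and 2814 lower, in place of 3920 and 4614 of 16630. The ATF4-described genes then counted 4 higher and 1 lower, so their order turned as that of all genes did. The other cytosolic genes counted 6 lower, the mitochondrial genes 1 higher and 9 lower, and the scaffold genes 1 higher and 1 lower with a median of -0.09.

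Isoleucine restriction gave no member a call, with limma's smallest adjusted p among members at 0.797 and 1 member at an unadjusted p below 0.05. Of all genes tested, 872 had an unadjusted p below 0.05 and 0 were called. The 38 changes ran from -0.17 to 0.34, and their 95% intervals reached from -0.49 to 0.72. QARS1, AARS1 and WARS1, which fell under leucine restriction against the same 4 control libraries, changed by -0.12, -0.08 and -0.01.

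Genes that act beside the synthetases were called in both directions too. Among 15 genes of tRNA maturation, charging and delivery, 3 were higher and 2 lower under histidine, 3 and 5 under methionine, 1 and 7 under tryptophan, 0 and 3 under phenylalanine and valine, and 0 and 0 under leucine restriction. The share of all genes called was 27.9% under histidine, 53.2% under methionine and 51.3% under tryptophan restriction. It was 10.2% under phenylalanine, 12.5% under valine and 7.75% under leucine restriction. XPOT, the nuclear exporter of tRNA, rose under histidine (0.78, adjusted p = 4.01e-05), methionine (1.08, adjusted p = 6.37e-09) and tryptophan restriction (0.70, adjusted p = 9.16e-07). EEF1G, a subunit of the factor that recharges the elongation factor delivering aminoacyl-tRNA, was lower under methionine (-1.43), phenylalanine (-1.21), valine (-1.21) and tryptophan restriction (-0.27), with adjusted p up to 0.00276. QRSL1, part of the mitochondrial enzyme that makes glutaminyl-tRNA by amidation, rose under histidine (0.74, adjusted p = 1.03e-05) and methionine restriction (0.70, adjusted p = 1.08e-06) and fell under tryptophan restriction (-0.69, adjusted p = 1.22e-06).

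Of 14 stress regulators and targets of the ATF4 pathway, 8 were higher and 2 lower under histidine, 6 and 7 under methionine, 11 and 1 under tryptophan, 0 and 3 under phenylalanine, 1 and 3 under leucine and 1 and 5 under valine restriction. Shares of all genes higher and lower were 15.6% and 12.3% under histidine, 27.8% and 25.4% under methionine and 23.6% and 27.7% under tryptophan restriction. They were 4.11% and 6.09% under phenylalanine, 3.41% and 4.33% under leucine and 5.13% and 7.36% under valine restriction. TRIB3, a pseudokinase induced by ATF4 and CHOP, rose by 1.06 under histidine, 2.21 under methionine and 2.61 under tryptophan restriction (adjusted p = 2.03e-06, 1.27e-11 and 1.87e-13). Under leucine restriction TRIB3 fell (-0.59, adjusted p = 0.0332). ASNS, asparagine synthetase, rose under tryptophan restriction (1.23, adjusted p = 8.85e-06) and fell under methionine restriction (-2.15, adjusted p = 5.93e-06). It also fell under phenylalanine (-0.94, adjusted p = 0.0234) and valine restriction (-0.93, adjusted p = 0.0125). Under tryptophan restriction 11 of this list were thus higher, while 6 of the 12 ATF4-described synthetases were lower and AARS1 and WARS1 higher. With libraries scaled to equal totals, 4 of these 12 synthetases were higher and 1 lower, so that contrast depends on the scaling. Of all genes, 6872 were then higher and 2814 lower. ATF4 mRNA itself was lower under tryptophan (-0.52, adjusted p = 1.23e-06) and histidine restriction (-0.36, adjusted p = 0.00162) and higher under methionine restriction (0.35, adjusted p = 0.00123). These lists are described by their counts and were not tested as sets.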

How the data were processed

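RNA from 59 Jurkat libraries was sequenced, and the authors deposited 7 tables, 1 per amino acid, of normalised counts (read as a signal, not as raw counts). Per the submitters' processing notes FastQC 0.11.9, kallisto 0.50.1 and DESeq2 1.44.0 were used with GRCh38; whether counting used strand is not stated there. Each table was normalised separately, so tests stayed within a table, and whole reads were not recovered (45.7% to 85.1% of low values lay within 0.1 of a whole step). Totals were 14.95 M to 20.54 M normalised counts per library.

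limma 3.58.1 (R 4.3.3) was fitted to log2(normalised count + 1) over all genes with a mean of at least 10, two-sided, with Benjamini-Hochberg adjustment over all genes, checked on simulated data. Own-amino-acid differences used 4 groups per fit. Alternatives were pseudocounts of 0.25 and 5, no filter, a mean minimum of 100, TMM factors computed in R, equal totals, a replicate block and leaving out each library. Library weights and omission of libraries standing apart were chosen after seeing the data. No pair of libraries held identical values.

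Members and lists were chosen with earlier results of these data known. Values in every library are given for synthetases of the restricted amino acid, members called in the same direction in at least 5 comparisons, and the largest called rise and fall of each comparison; the other members so described were chosen after their values were seen. Promoters come from RefSeq (GRCh38.p14) and gene overlaps from GENCODE 29.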

Additional observations from a re-analysis of the deposited data

Results flagged for a closer look

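In 5 of 56 groups of libraries tested, 1 library lay far from the others of its group, where chance alone gives about 1 group in 20. FARSA was at 5091 normalised counts in phenylalanine restricted 2, with the other 4 restricted libraries at 3142 to 3561. In the same library MARS1 was at 8742, against 7246 to 7622 in the others. MARS1 was at 6069 in phenylalanine control 4, against 4844 to 5177, and QARS1 in that library was at 5110.1, against 4302 to 4419. MARS2 was at 648 in methionine restricted 3, below the 716 to 727 of the others.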

How the results depend on the processing

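Of 99 calls of a member in a comparison, 80 remained when any 1 library was left out and 19 were lost at least once, while 23 uncalled values passed at least once. Leaving out 1 library gave 3 to 8 members lower under histidine restriction (6 with all libraries), 0 to 5 higher and 3 to 5 lower under leucine restriction (1 and 5), and 3 to 7 higher under valine restriction (4). Scaling to equal totals gave 8 members higher under phenylalanine restriction (3 as deposited), 6 higher and 17 lower under tryptophan restriction (2 and 27), 3 higher under leucine (1) and 8 higher under valine restriction (4). Under tryptophan restriction it also turned GARS1 to 0.023 (adjusted p = 0.802), IARS1 to 0.17 (adjusted p = 0.0348), QARS1 to 0.067 (adjusted p = 0.337) and SARS1 to 0.17 (adjusted p = 0.0049). It shifted the median of all genes by 0.25 under tryptophan, 0.13 under methionine, 0.12 under phenylalanine and 0.11 under valine restriction. The share of called genes that were higher went from 52.2% to 62.6% under methionine, from 40.3% to 67% under phenylalanine, from 45.9% to 70.9% under tryptophan and from 41.1% to 63.7% under valine restriction. Under leucine restriction 2 members were higher with a pseudocount of 0.25, a mean of at least 100 or TMM factors. Library weights gave 7 higher and 14 lower under phenylalanine, 3 higher under leucine and 8 higher under valine restriction. Omitting libraries high in ribosomal protein mRNA gave 7 higher and 13 lower, 5 higher and 9 higher in the same comparisons. The cause of these moves was not tested. The other counts over all 38 members stayed within 1.5 times. Among the classes, equal totals moved the multisynthetase complex from 0 higher and 7 lower to 2 and 3 under tryptophan, from 1 and 2 to 2 and 1 under phenylalanine and from 0 and 2 to 2 and 2 under valine restriction. It moved the scaffold genes under tryptophan restriction from 0 and 2 to 1 and 1, and, as TMM factors did, the ATF4-described genes from 5 and 5 to 5 and 3 under methionine and from 1 and 5 to 1 and 3 under phenylalanine restriction.

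Replicate numbers did not pair the libraries: over 32 same-numbered pairs the correlation of deviations ran from -0.19 to 0.19, with 3 over 0.1, and 7 restricted libraries correlated best with their own number. With a replicate block the counts higher and lower were 12 and 5 (histidine), 15 and 9 (methionine), 2 and 4 (phenylalanine), 2 and 25 (tryptophan), 0 and 0 (isoleucine), 1 and 4 (leucine) and 4 and 8 (valine), and 32 of 78 own-amino-acid differences passed, against 33 without the block. Depth in reads is not known. Of the 38 genes, 23 overlap a gene on the opposite strand and 13 have a pseudogene of their own name, with which reads may be shared. The overlaps are of whole gene spans, introns included, and overlap of exons was not computed, so how many genes share reads is not known.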
